A study of Danio rerio with 6 samples.

Results

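The ATP-binding cassette (ABC) genes described here are abcc12, abcc13, abcc6b.2, tap1 and cftr, 5 of the 46260 transcripts counted in each library of a zebrafish testis experiment. They were chosen by the study from its list of 409 transcripts that differed between Insl3-treated and basal testes in these same libraries at an unadjusted threshold of 0.05. Their difference between the conditions is therefore a description of how they were selected and no test of it. Each gene is represented by the 1 transcript listed for its symbol (ENSDART00000149382.3 for abcc12, ENSDART00000142813.1 for abcc13, ENSDART00000172943.1 for abcc6b.2, ENSDART00000150156.2 for tap1 and ENSDART00000168839.1 for cftr). All 5 transcripts passed the filter on low counts, which kept 36363 transcripts. Other transcripts of these genes, and 51 further ABC genes that RefSeq names in this species, were not matched to the counts and were not analysed here.

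Testes of adult wild-type zebrafish were explanted and cultured, and for the last 2 days 3 samples received zebrafish insulin-like 3 (Insl3), a peptide hormone of Leydig cells, at 100 ng/mL, while 3 did not (basal). Treatment followed 2 days of culture without hormone, during which the explants' own Insl3 was presumed to fall. The explants were whole tissue without the pituitary, so germ cells, Sertoli cells, Leydig cells and tubule wall were sequenced together, and fewer cells of a type cannot be told apart from less RNA per cell. Basal and Insl3 libraries carried the replicate numbers 1, 2 and 3, and libraries with the same number resembled each other, so differences are also given within each same-numbered pair. Total counts ranged from 20967304 to 28939006 per library. Levels are given as CPM, the count of a transcript scaled to a library of 1000000 reads after TMM normalization, which corrects for library size and composition. Markers of germ, Sertoli and Leydig cells were not matched to transcripts, so the labelled tissue was not checked against them here.

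ABC proteins use the binding and hydrolysis of ATP to move substrates across membranes, and a shared pair of nucleotide-binding domains defines the superfamily. Members of the C subfamily, also called multidrug resistance-associated proteins, mostly export organic anions, among them conjugates of glutathione, glucuronate and sulfate. The same subfamily contains Cftr, which has turned the transporter fold into an ATP-gated channel for chloride and bicarbonate. Tap1 belongs to the B subfamily and, paired with Tap2, pumps peptides from the cytosol into the endoplasmic reticulum, where they are loaded on major histocompatibility complex class I molecules.

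With Insl3, abcc12, abcc13, abcc6b.2 and tap1 were lower and cftr was higher, by between 1.47-fold (tap1) and 3.37-fold (abcc13) on group means of CPM for the lower genes and by 1.53-fold for cftr. For each of the 5 transcripts the 3 Insl3 libraries lay on 1 side of the 3 basal libraries, and the direction was the same in all 3 same-numbered pairs. Over all 36363 tested transcripts, groups did not overlap with Insl3 lower for 2.66% and with Insl3 higher for 2.55%, and the direction was down in all 3 pairs for 17.0% and up in all 3 for 20.5%. Because the members were picked on this contrast, nothing is read from their standing above this background. The median log2 fold change was -0.80 over the 5 members and 0.01 over all tested transcripts. The plot of levels by library shows the points behind these statements.

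**Figure D1:**
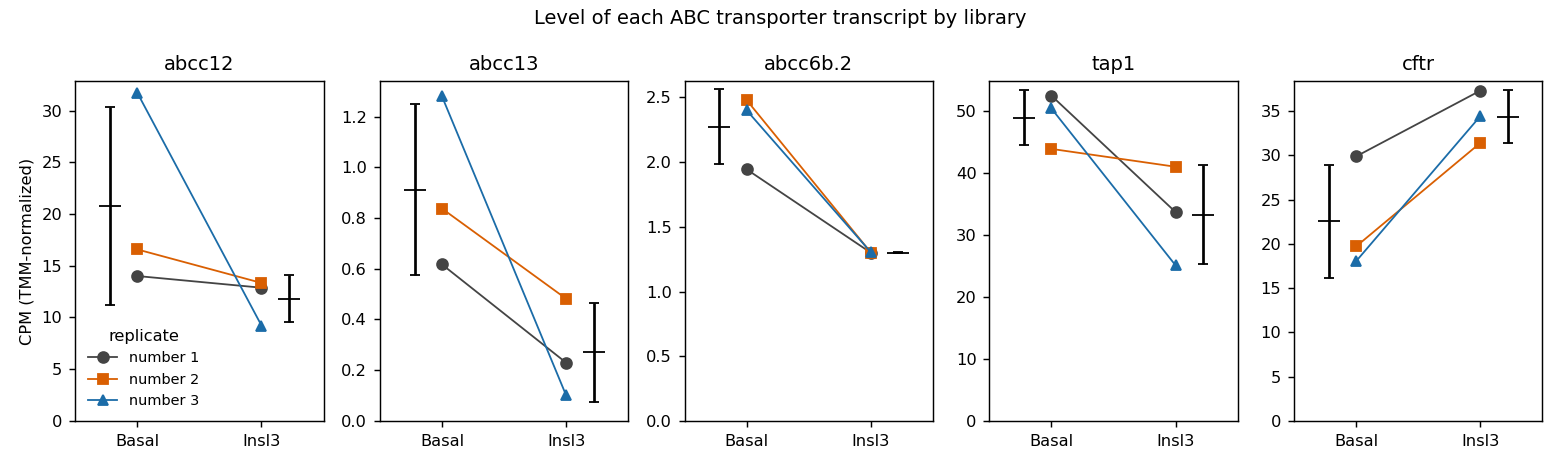
Level of each transcript in CPM (y axis, from 0, a separate scale for each gene) in basal and Insl3 libraries (x axis). Symbols and lines join libraries with the same replicate number, and the bar beside each group is its mean with SD (n = 3). The groups do not overlap for any of the 5 genes, and abcc12 has 1 basal library, number 3, at 31.7 CPM against 14.0 and 16.6 in the others.

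The gene abcc12 encodes a C-subfamily protein known in mammals as MRP9, which in mice is made in the testis and sperm. Its reads numbered 454, 495 and 595 in the basal libraries 1, 2 and 3, against 337, 277 and 184 in the Insl3 libraries 1, 2 and 3, the order kept for every gene that follows. After normalization the basal libraries stood at 14.0, 16.6 and 31.7 CPM, and the Insl3 libraries at 12.9, 13.3 and 9.22 CPM. Basal replicate 3 stood well above the other basal libraries, which were close to the Insl3 group, and only 0.67 CPM separated the lowest basal from the highest Insl3 library. The basal mean was 20.8 ± 9.58 CPM (SD, n = 3), the Insl3 mean 11.8 ± 2.26 CPM (SD, n = 3), and the fitted log2 fold change -0.81 (standard error 0.35). Within pairs the log2 difference was -0.12, -0.31 and -1.77 in pairs 1, 2 and 3, so pair 3 held most of it. A difference at least as low as that of abcc12 was found in 34.2% of tested transcripts in pair 1, in 23.0% in pair 2 and in 2.07% in pair 3. In pair 1 the ratio of Insl3 to basal CPM was 0.919, with an exact 95% interval of 0.796 to 1.06 that covers counting error only and includes no change. Without basal replicate 3 the log2 fold change was -0.36 (standard error 0.24), and without both libraries numbered 3 it was -0.23 (standard error 0.19).

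The gene abcc13 encodes a further C-subfamily protein, whose human counterpart does not make a full transporter. It was the scarcest of the 5 in reads, with 20, 25 and 24 in the basal and 6, 10 and 2 in the Insl3 libraries. These correspond to basal levels of 0.617, 0.838 and 1.28 CPM and Insl3 levels of 0.229, 0.482 and 0.10 CPM, with 0.14 CPM between the nearest libraries of the groups. That abcc13 passed the filter on low counts, with its minimum of 10, rested on the basal libraries, where it was high. The basal mean was 0.912 ± 0.338 CPM (SD, n = 3), the Insl3 mean 0.270 ± 0.194 CPM (SD, n = 3), and the fitted log2 fold change -1.72 (standard error 0.63), the lowest value and the widest error among the members. Counting error alone would give an SD of 0.111 CPM in the Insl3 group, so part of its spread is of that size. In pair 3, with 24 against 2 counts, the ratio of Insl3 to basal was 0.0783 (exact 95% interval 0.00897 to 0.315). In pair 2, with 25 against 10 counts, it was 0.575 (0.246 to 1.24), which was not distinguishable from no change at this depth. Leaving out single libraries moved the log2 fold change between -2.39 and -1.37, and leaving out both libraries numbered 3 gave -1.05 (standard error 0.62).

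The gene abcc6b.2 carries a symbol that marks it as a tandem duplicate related to ABCC6. In mammals ABCC6 is a transporter made mainly in the liver that is needed for release of ATP to the blood, and its loss in humans leads to mineral deposits in connective tissue. It was represented by 63, 74 and 45 reads in the basal and by 34, 27 and 26 reads in the Insl3 libraries. Normalized levels were 1.94, 2.48 and 2.40 CPM in the basal libraries and 1.2996, 1.3004 and 1.303 CPM in the Insl3 libraries, so the 3 Insl3 values were nearly identical. Their SD of 0.00179 CPM is far below the 0.243 CPM that counting error alone would give, and it is no measure of the precision of this level. The basal mean was 2.27 ± 0.289 CPM (SD, n = 3), the Insl3 mean 1.30 CPM, and the fitted log2 fold change -0.80 (standard error 0.31). This gene had the most even difference of the 4 lower members, with -0.55, -0.89 and -0.84 log2 in pairs 1, 2 and 3. Its log2 fold change lay between -0.91 and -0.73 with each library left out in turn. The evenness rests in part on the 3 nearly identical Insl3 values. In pair 1 the ratio of Insl3 to basal was 0.668 (exact interval 0.427 to 1.03), which includes no change. A difference at least as low as that of abcc6b.2 was found in 10.2%, 4.02% and 7.74% of tested transcripts in pairs 1, 2 and 3. Whether a similar copy shares reads with abcc6b.2 was not tested, so its value is uncertain in this respect.

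The gene tap1 encodes a subunit of the peptide transporter described above. It had the most reads of the 5, with 1702, 1311 and 946 in the basal and 882, 852 and 501 in the Insl3 libraries. Normalized basal levels were 52.5, 43.9 and 50.5 CPM and Insl3 levels 33.7, 41.0 and 25.1 CPM, with 2.89 CPM between the nearest libraries, basal replicate 2 and Insl3 replicate 2. The basal mean was 49.0 ± 4.49 CPM (SD, n = 3), the Insl3 mean 33.3 ± 7.97 CPM (SD, n = 3), and the fitted log2 fold change -0.56 (standard error 0.22). The basal samples were closer together than the treated ones, with coefficients of variation of 9.17% and 24.0%. Within pairs the log2 difference was -0.64, -0.10 and -1.005. In pair 2 the ratio of Insl3 to basal was 0.934 (exact 95% interval 0.856 to 1.02). A difference at least as low as that of tap1 was found in 7.90%, 40.7% and 5.84% of tested transcripts in pairs 1, 2 and 3. The partners of Tap1 in antigen presentation, among them tap2, tapasin and the immunoproteasome subunits, were not matched to transcripts and were not analysed here.

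The gene cftr was the only member with a higher level under Insl3. In mammals Cftr sets the chloride and bicarbonate content of fluid in the male tract, and in zebrafish it drives fluid secretion into Kupffer's vesicle of the embryo. It had 968, 588 and 338 reads in the basal and 976, 652 and 687 reads in the Insl3 libraries. In CPM the basal libraries were at 29.9, 19.7 and 18.03 and the Insl3 libraries at 37.3, 31.4 and 34.4, so the basal libraries spread 1.66-fold and the Insl3 libraries 1.19-fold. The nearest libraries, basal replicate 1 and Insl3 replicate 2, were 1.53 CPM apart. The basal mean was 22.5 ± 6.41 CPM (SD, n = 3), the Insl3 mean 34.4 ± 2.95 CPM (SD, n = 3), and the fitted log2 fold change 0.61 (standard error 0.24). The log2 differences within pairs were 0.32, 0.67 and 0.93, and 22.2%, 8.14% and 5.65% of all tested transcripts were at least as high in pairs 1, 2 and 3. With library totals as the only scaling, the groups overlapped, since basal replicate 1 (33.5 CPM) was then above Insl3 replicates 2 and 3 (30.8 and 31.0 CPM), and the log2 fold change was 0.49 (standard error 0.29). The direction was the same under TMM, RLE and library-total scaling.

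**Figure D2:**
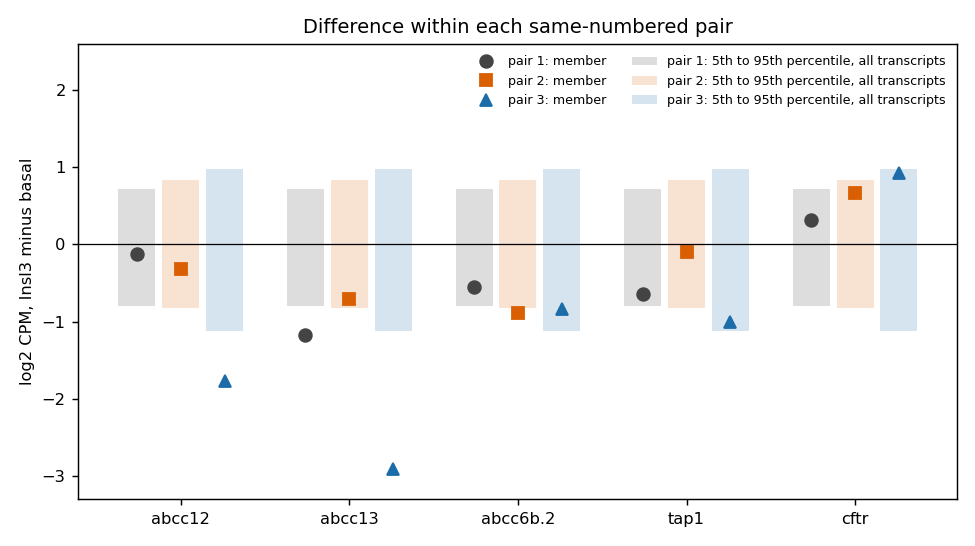
Difference in log2 CPM, Insl3 minus basal (y axis), within same-numbered pairs 1, 2 and 3 for each of the 5 genes (x axis). Symbols are the members and shaded bars span the 5th to 95th percentile of all 36363 tested transcripts in that pair. The abcc12 and abcc13 points of pair 3, at -1.77 and -2.91, lie below a bar that ends at -1.12, abcc13 in pair 1 (-1.17) and abcc6b.2 in pair 2 (-0.89) also lie below theirs (-0.79 and -0.82), and the 3 cftr points, at 0.32 to 0.93, lie inside the bars.

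In edgeR's quasi-likelihood test across all transcripts, 0 of the 5 members had an adjusted p under 0.05 (adjusted p = 0.9999 for each), as was the case for 0 of the 36363 transcripts (0%). This test did not use the pairing of same-numbered libraries, so the spread between pairs is part of its error. Unadjusted p-values were under 0.05 for abcc13, abcc6b.2 and tap1 among the lower members and for cftr. Over all tested transcripts this was so for 341 lower ones (0.938%) and 197 higher ones (0.542%), and with library totals as the only scaling for 424 and 114. DESeq2 gave 1 transcript with an adjusted p under 0.05, which was no member, and unadjusted p-values under 0.05 for 347 lower and 297 higher transcripts. Nearest to this limit in edgeR's test across all transcripts were tap1, just inside it (unadjusted p = 0.04001, adjusted p = 0.9999), and abcc12, just outside it (unadjusted p = 0.05002, adjusted p = 0.9999). In edgeR's paired fit, with the replicate number as a block, all 5 members had an unadjusted p under 0.05. So did 6.13% of all tested transcripts on the lower side and 7.40% on the higher side. The members' adjusted p-values with the block in edgeR were 0.332 for abcc12, 0.279 for abcc13, 0.296 for abcc6b.2, 0.238 for tap1 and 0.169 for cftr. The blocked log2 fold changes were -0.72 (standard error 0.29), -1.71 (standard error 0.58), -0.79 (standard error 0.28), -0.58 (standard error 0.17) and 0.64 (standard error 0.15) in the same order. The block made the standard error of cftr smaller by the largest share, from 0.24 to 0.15. In DESeq2 with the block the adjusted p of cftr was 0.0208, the only fit with a called member. That fit called 490 of the 20583 transcripts to which it gave an adjusted p (2.38%), and abcc13 and abcc6b.2 had none.

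**Figure D3:**
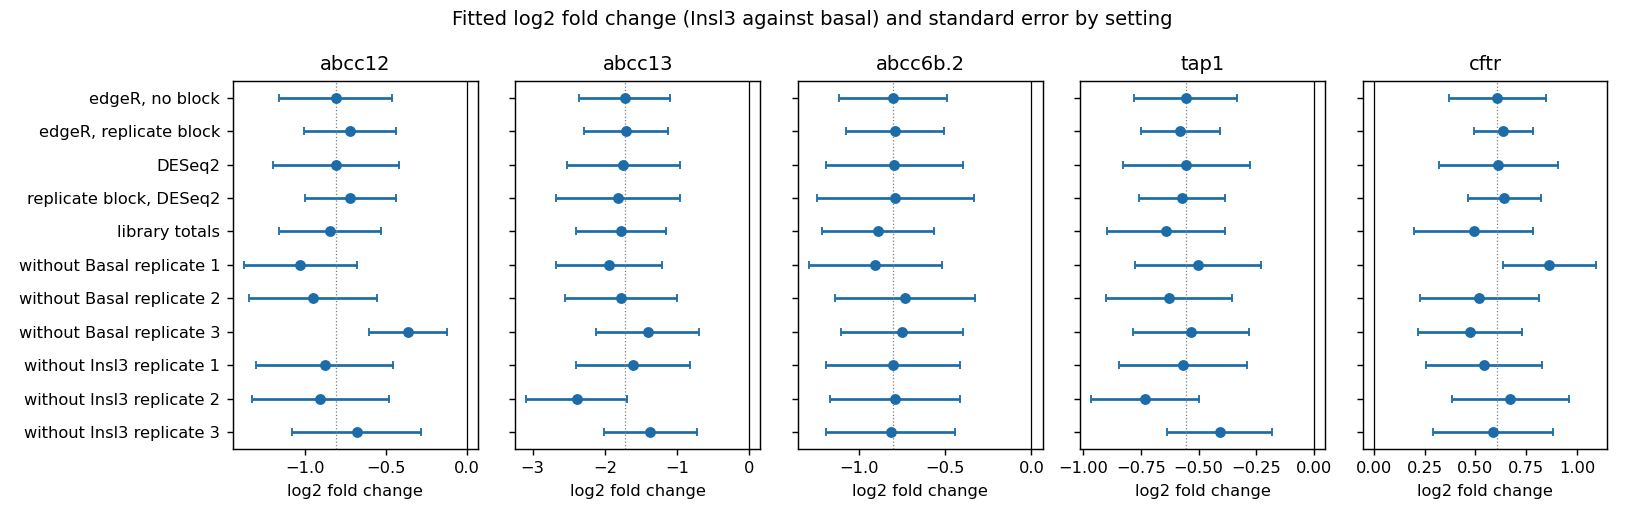
Fitted log2 fold change of each gene, Insl3 against basal (x axis, a separate scale for each gene), under 11 settings (rows). Points are the fitted values, bars their standard errors and the dotted line the value without the block. No point crosses 0, and among the settings drawn the abcc12 point nearest to 0 is that without basal replicate 3, at -0.36 against -0.81 with all libraries.

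Which transcripts varied most like each member across the 6 libraries was also measured, as Pearson's r of log2 CPM against the other 387 symbol-bearing tested transcripts of the study's list. These r values are descriptions over 6 libraries, and all the transcripts compared were selected for the same difference between the conditions. For abcc12 the closest were pck2 (r = 0.996), a mitochondrial enzyme of gluconeogenesis, faah2a (r = 0.994), a fatty acid amide hydrolase, and si:ch73-106k19.5 (r = 0.993), and no tested transcript of any kind was closer than these 3. Like abcc12, pck2 was highest in basal replicate 3, with 60.2 CPM against 13.1 and 20.8 CPM in the other basal libraries. For abcc13 they were acss1 (r = 0.986), which makes acetyl-CoA from acetate, mgat1b (r = 0.982), an enzyme of N-glycan synthesis, and dhcr7 (r = 0.980), which catalyses a last step of cholesterol synthesis. For abcc6b.2 they were slc25a17 (r = 0.980), a peroxisomal carrier, nrip1a (r = 0.969), a corepressor of nuclear receptors, and sar1ab (r = 0.968), a GTPase of secretory vesicles. For tap1 they were si:dkey-222f8.3 (r = 0.986), slc8b1 (r = 0.978), the mitochondrial sodium/calcium exchanger, and clmn (r = 0.970). For cftr they were slc7a14b (r = 0.970), acot11b (r = 0.955), an acyl-CoA thioesterase, and ptpdc1b (r = 0.951). Beyond abcc12, tested transcripts other than these symbol-bearing ones were also among the closest. Of all tested transcripts, 12 were at least as close to abcc13 as dhcr7 and 6 to abcc6b.2 as sar1ab. For tap1, 22 were at least as close as clmn, and for cftr 34 as ptpdc1b, counts that include the named transcripts. None of the 15 transcripts named in this way came up for more than 1 member.

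**Figure D4:**
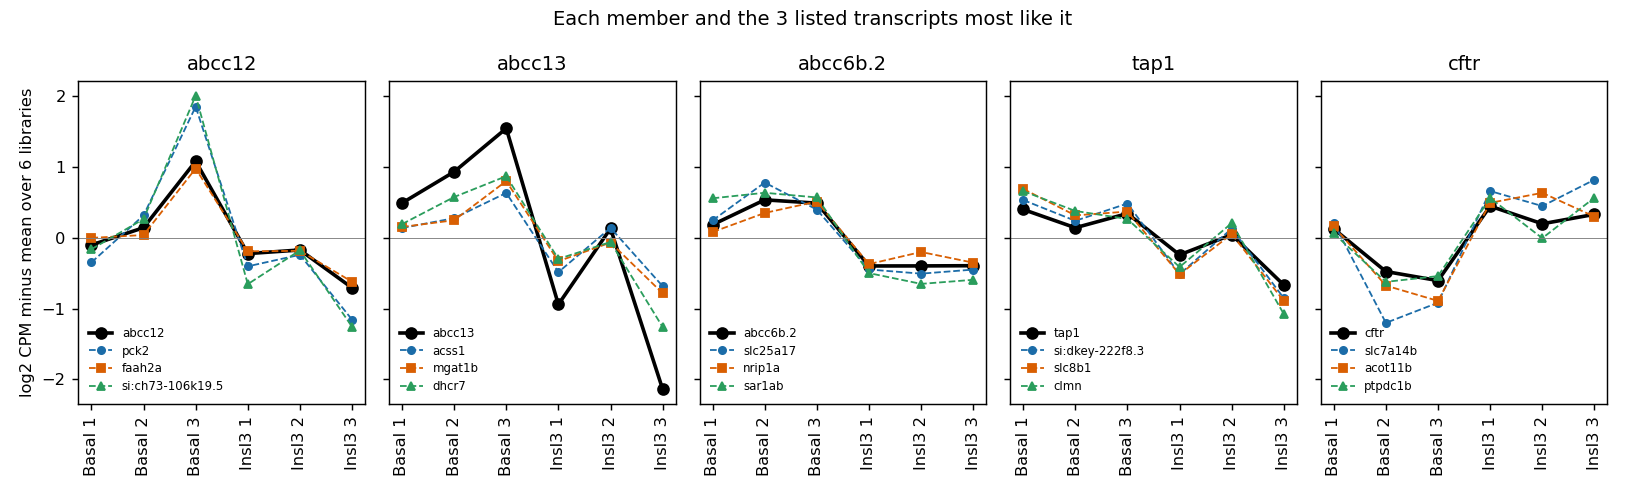
log2 CPM minus its mean over the 6 libraries (y axis) by library (x axis) for each member (black) and the 3 listed transcripts with the highest r to it (coloured, dashed). The curves are drawn without the prior count of 2 that was used for r. The panel of abcc12 has its peak in basal replicate 3, that of abcc6b.2 is flat within the Insl3 group, and that of abcc13 is lowest in Insl3 replicate 3.

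The other transport genes of the study's list give the setting of the 5 ABC genes, although they too were selected on this contrast. Of 16 further genes that the study placed under transmembrane transport, 15 were tested, 7 of them lower and 8 higher with Insl3. The filter on low counts removed slc16a9a, with 7, 23 and 56 basal and 7, 6 and 4 Insl3 counts, but DESeq2 fitted it too. The list went both ways, and its median log2 fold change was 0.80 over the 15 tested and 0.06 in DESeq2, where 8 were lower and 8 higher. Unadjusted p-values were under 0.05 in edgeR for 6 lower and 7 higher ones, beside the 0.938% and 0.542% of all tested transcripts given above, and 0 passed after adjustment. With library totals as the only scaling these numbers were 6 and 4. Without basal replicate 3 they were 3 and 4, while 1.95% of all transcripts were then lower and 1.98% higher at this limit. The lower side included slc25a1b, the mitochondrial citrate carrier (log2 fold change -1.63, standard error 0.40), with 101, 95 and 93 basal and 42, 26 and 15 Insl3 counts, and slc22a23, an organic ion transporter relative (-0.95, standard error 0.29). The higher side included slc5a5, the sodium/iodide symporter (1.62, standard error 0.66), and slc13a1, a sodium/sulfate cotransporter (1.66, standard error 0.56), both with overlapping groups. It also held the channel genes cnga3a (0.89, standard error 0.33), cacna1fb (1.04, standard error 0.36), trpa1b (1.32, standard error 0.47) and hcn3 (0.80, standard error 0.34), each with groups that did not overlap. The other channel genes of the list were kcnb2, higher with overlapping groups (1.12, standard error 0.50), and trpv1, lower with groups that did not overlap (-1.82, standard error 0.70). A further 9 solute carriers were listed, of which 8 were tested, 5 lower and 3 higher, with a median of -0.90. The lowest of these was slc38a3b, a glutamine transporter (-2.96, standard error 1.11), at 122, 49 and 350 basal and 50, 21 and 2 Insl3 counts. Its groups overlapped, and its log2 difference was -0.95, -0.66 and -6.69 in pairs 1, 2 and 3. Of the 6 listed genes of xenobiotic and glutathione handling, 4 were lower and 2 higher, with a median of -1.06 that was -0.44 without basal replicate 3. They include nr1i2, the pregnane X receptor, which in mammals induces several ABC transporters. It had 40, 30 and 37 basal and 19, 11 and 7 Insl3 counts, with a fitted log2 fold change at -1.36 (standard error 0.47).

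**Figure D5:**
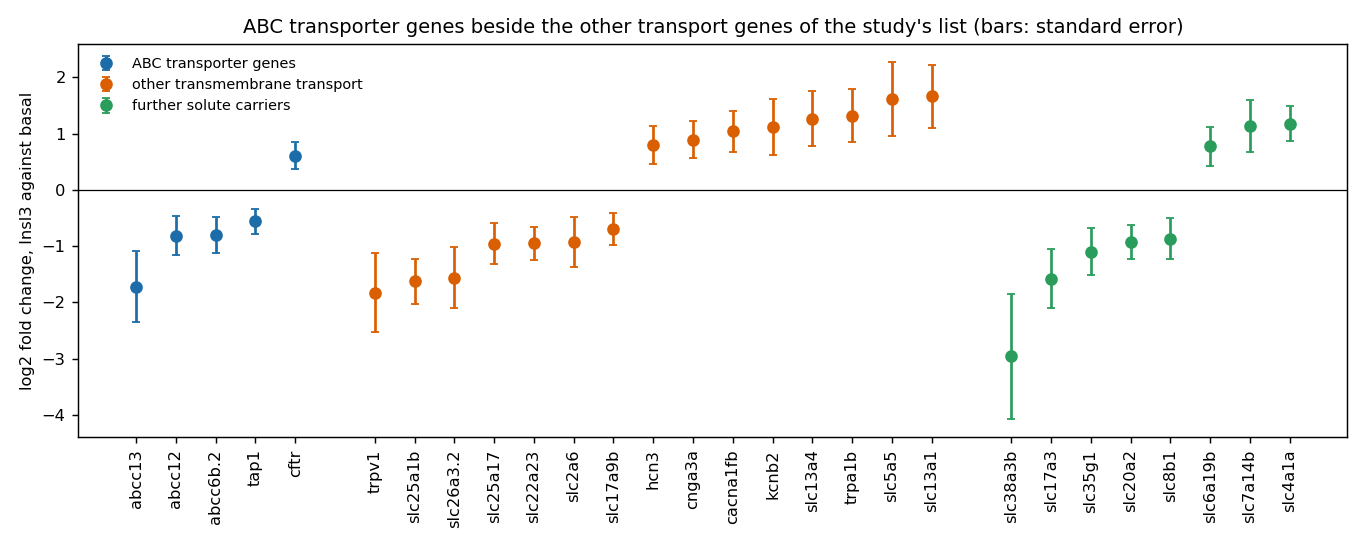
Fitted log2 fold change, Insl3 against basal (y axis), with its standard error for the 5 ABC genes, 15 other transmembrane transport genes and 8 further solute carriers (x axis, ordered by value within each group). The ABC genes span -1.72 to 0.61, inside the span of the other groups, and slc38a3b is lowest at -2.96.

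Most of the liver markers of the study's list reported here were highest in basal replicate 3, and those tested were lower with Insl3. Of the lower members, abcc12 and abcc13 were also highest in basal replicate 3. The others peaked elsewhere, tap1 in basal replicate 1 (52.5 CPM) and abcc6b.2 in basal replicate 2 (2.48 CPM). The 7 markers (tfa, kng1, leap2, gcgra, hnf1ba, foxa1 and nr1i2) summed to 75.4, 115 and 512 CPM in the basal libraries, in the order of their numbers, and to 29.2, 62.8 and 14.9 CPM in the Insl3 libraries. Of these sums, tfa alone made up 65.6, 103 and 463 CPM in the basal and 24.5, 56.4 and 6.51 CPM in the Insl3 libraries. The 6 markers that were tested were lower with Insl3, as were 49.3% of all tested transcripts. Of the 7, 6 had their highest value in basal replicate 3, the library with the highest abcc12 and abcc13, as did 16.5% of all tested transcripts. All cell type markers given here come from the study's list and were selected on this contrast. Nothing is therefore read from their direction, or from the library in which they peak, against these shares. None was at 0 in any library, but foxa1 had 1 count in basal replicate 2 and hnf1ba 1 count in Insl3 replicate 2. The median log2 fold change of the 6 tested markers was -2.22 with all libraries and -0.98 without basal replicate 3. The 4 intestinal epithelium genes (npc1l1, soat2, gpa33 and slc26a3.2) were all highest in basal replicate 3, at a sum of 19.5 CPM against 8.27 and 7.81 CPM in the other basal libraries and 4.19 to 6.42 CPM with Insl3. Leukocyte genes (mpx, lsp1 and rasgrp2) summed to between 28.6 and 34.6 CPM in the basal and between 16.99 and 29.5 CPM in the Insl3 libraries, with lsp1 lower and mpx and rasgrp2 higher on the fitted log2 scale (-0.99, 3.02 and 1.10), and none of the 3 was at 0. Of these sums, lsp1 alone made up 27.0 to 32.4 CPM in the basal and 5.61 to 23.6 CPM in the Insl3 libraries. The groups of mpx and rasgrp2 overlapped. For mpx the counts were 8, 23 and 6 basal and 2, 81 and 142 Insl3, with a log2 difference of -1.06 in pair 1. The blood vessel marker fli1a was at 0.640 to 1.37 CPM in the basal and 0.289 to 0.551 CPM in the Insl3 libraries, and the red blood cell marker slc4a1a at 1.67 to 1.87 CPM and 3.37 to 5.01 CPM. The part of these cells in the levels of the 5 ABC genes was not tested. Without basal replicate 3 the log2 fold changes were -0.36 for abcc12, -1.41 for abcc13, -0.75 for abcc6b.2, -0.53 for tap1 and 0.47 for cftr. In edgeR's test the unadjusted p was then under 0.05 for 0 of the 5, against 4 with all libraries. The count was also 0 without basal replicate 2 and without Insl3 replicate 1 or 3. The same limit was passed by 547 of 36882 transcripts without basal replicate 2. It was passed by 885 of 36960 without Insl3 replicate 1 and by 170 of 37398 without Insl3 replicate 3. Over all transcripts, 1.95% were lower and 1.98% higher at this limit without basal replicate 3, against 0.938% and 0.542% with all libraries.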

How the data were processed

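Per the labels, RNA of 3 basal and 3 Insl3-treated testes was made into libraries with a TruSeq v2 kit, which does not mark strand. The submitters' processing notes name CASAVA 1.8, TopHat2 2.0.12, SAMtools 0.1.18, HTSeq 0.6.1, DESeq 1.18.1 and the GRCz10 build. The authors deposited 1 unnormalized whole-number count for each transcript ID in each library. The annotation release and counting mode are not given in the sources used here. Reads shared between transcripts of a gene, or with overlapping genes, could therefore be lost or assigned to either. In RefSeq's GRCz12tu assembly abcc12 overlaps zgc:103601 and a lncRNA, abcc13 overlaps zgc:112408 and tap1 overlaps notchl. Conditions and replicate numbers came from the labels, and the Insl3 dose and culture times from the study's methods.

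Symbols were taken from the study's supplementary list through its transcript IDs, and its fold changes and p-values were not used. In edgeR 4.0.16 (R 4.3.3), filterByExpr with a minimum count of 10 kept 36363 transcripts. These were TMM-normalized, and condition was the only term of a two-sided quasi-likelihood test, with p-values adjusted by the Benjamini-Hochberg method. A standard error in edgeR is the size of a log2 fold change over the root of its F statistic, and in DESeq2 it is the one that DESeq2 reports. Pair differences and r values use log2 CPM with a prior count of 2. Ratios within pairs carry exact conditional binomial intervals (Clopper-Pearson, 95%), which cover counting error only, since reads without molecular identifiers are not independent molecules. Same-numbered libraries deviated together from their group means (r = 0.58 to 0.73 across transcripts in the 3 pairs, against -0.51 to -0.19 for different numbers). Deviations within a group cancel out, so the negative values follow in part from the centring and are no separate support. The numbers were treated as pairing the libraries in the pair differences and in the fits with the replicate block. The main fit and those with libraries or pairs left out held condition alone. The study calls the 3 samples of each condition biological replicates. The sources used here do not say what samples with the same number share, or whether they came from separate fish. The p-values therefore measure the spread between these samples. Alternatives were RLE factors, library totals, no filter, a mean of at least 10 counts, robust dispersions, DESeq2 (1.42.0), the replicate block alone, with no filter and with DESeq2, and each library or pair left out. The fitting code was tested on simulated data. The genes named are the 5 members, the 3 listed transcripts most like each by r, and genes of fixed lists, of which 1 liver marker is not reported here. The members and lists were chosen with earlier results of these data known.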

Additional observations from a re-analysis of the deposited data

How the results depend on the processing

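The direction of all 5 members was the same in each of the 90 member fold changes computed under the 18 alternatives. The number of members with an adjusted p under 0.05 was 0 in each fit except DESeq2 with the replicate block, where it was 1 (cftr, log2 fold change 0.64), and abcc13 and abcc6b.2 had no adjusted p there. The number with an unadjusted p under 0.05 was 4 of 5 in the main fit. It was 5 with no filter, robust dispersions, DESeq2 alone, the edgeR block, and that block with no filter. With all libraries it was otherwise 4, but the members counted were not always those of the main fit. With library totals abcc12 was among them and cftr was not. In DESeq2 with the block abcc12 was among them and abcc6b.2 was not (unadjusted p = 0.0833). The number ranged from 0 to 3 with each library left out and from 0 to 2 with each same-numbered pair left out. It was 0 without basal replicate 2 or 3, or without Insl3 replicate 1 or 3. With single libraries left out, abcc6b.2 was never among the members counted, and each other member was counted in 1 or 2 fits. Over all transcripts the number was 503 with robust dispersions and 644 with DESeq2 alone. The 5 members whose groups did not overlap became 4 with library totals, through cftr. The share of all transcripts without overlap was computed under TMM only, so nothing is read from this count. Over all transcripts, the 538 with an unadjusted p under 0.05 became 845 with no filter on low counts, 4920 with the replicate block, 5338 with the block and no filter and 3388 with DESeq2 and the block, and ranged from 170 (without Insl3 replicate 3) to 1472 (without basal replicate 3) with each library and from 257 to 755 with each pair left out. Adjusted calls over all transcripts were 0, but 1 with DESeq2, 195 with the block and no filter and 490 with DESeq2 and the block. Depth limits abcc13 most, whose Insl3 libraries hold 2 to 10 counts. The cause of these changes was not tested.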

Other observations

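Across the 6 libraries cftr ran opposite to the other members, with r of log2 CPM from -0.92 against abcc6b.2 to -0.62 against tap1. These signs follow from the selection of the members on the contrast, with cftr higher and the others lower, and are no separate result. After the group means were removed, the r of cftr was -0.91 with abcc6b.2, -0.68 with abcc12, -0.58 with abcc13 and 0.06 with tap1. The genes abcc13 and abcc12 (r = 0.78) and abcc13 and tap1 (r = 0.78) still varied together after this step, and abcc6b.2 and tap1 did not (r = -0.28). The Insl3 levels of abcc6b.2 hardly varied (SD 0.00179 CPM), so its r values after this step rest on the basal libraries. Its basal SD of 0.289 CPM is below the 0.301 CPM that counting error alone would give. All r values here are descriptions over 6 libraries, whose deviations carry the resemblance of same-numbered samples.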
